A study of Homo sapiens with 4 samples.

Results

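The genes of this report are the 8 that encode the Hedgehog ligand SHH, the protein that releases it and the receptors, co-receptors and ligand trap that meet it at the cell surface: SHH, DISP1, PTCH1, HHIP, SMO, GAS1, CDON and BOC. They were taken by symbol and not by a measured value, though with earlier results of these data known. They came from the 20363 genes of the deposited count table, and each symbol was found once. Their transcripts were counted in DAOY cells, a human line from a medulloblastoma of the cerebellum, in 4 RNA-seq libraries, 1 for each condition. Control cells (CTL) and cells overexpressing ZNF521 (ZNF521), a zinc finger transcription co-factor, each received either DMSO, the vehicle, or SAG, a small molecule that binds and activates SMO, which gives the groups CTL_DMSO, CTL_SAG, ZNF521_DMSO and ZNF521_SAG. In the methods ZNF521 came from the lentiviral vector FUIGW, which also carries EGFP, and the transduced cells were sorted as a population for EGFP. The deposited design calls the controls WT, while the study describes controls with the empty vector, so that which of these was sequenced is not settled, and for WT controls ZNF521 and transduction cannot be told apart. The labels give no dose or duration of SAG for the sequenced cells and nothing on separate cultures, so p-values and intervals rest on the spread and the counting error of these 4 libraries alone. In the methods SAG followed starvation of the cells, with a dose range and a duration that are not tied to the sequenced cells.

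As background, SHH is a lipid-modified secreted protein that leaves the producing cell with the help of the transporter-like protein DISP1. On the receiving cell PTCH1 holds SMO inactive until the ligand binds it, and active SMO then signals to the GLI transcription factors. GAS1, CDON and BOC are co-receptors that present the ligand to PTCH1, whereas HHIP is a membrane protein that binds the ligand without signalling and so competes with PTCH1. PTCH1 and HHIP are themselves GLI target genes and damp the pathway that induces them. In the developing cerebellum SHH from Purkinje cells drives the granule neuron precursors, from which the SHH subgroup of medulloblastoma arises, and loss of PTCH1 is a well-known lesion of that subgroup.

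The promoters of both feedback genes were looked at first, because HHIP and PTCH1 were the 2 members with the largest positive fold for SAG. RefSeq sequences of 300 bases around each start, 250 of them before it, were searched on both strands for the 9 letters GACCACCCA, the core bound by GLI proteins, whose reverse complement is TGGGTGGTC. Of 35116 starts, 83 held the exact motif (0.236%), and PTCH1 was the only member among them, at 1 of its 5 starts. In the sequence of 250 bases before that start, at chr9:95509267-95509516 on the minus strand of GRCh38.p14, the motif lies 172 bases before the start, inside an intron of PTCH1 in GENCODE v44. The sequence before the HHIP start, at chr4:144645906-144646155 on the plus strand, is shown for contrast, and it overlaps an exon of the antisense gene HHIP-AS1. Both are printed 5′ to 3′, and the capitals mark the motif, here on the opposite strand.
PTCH1: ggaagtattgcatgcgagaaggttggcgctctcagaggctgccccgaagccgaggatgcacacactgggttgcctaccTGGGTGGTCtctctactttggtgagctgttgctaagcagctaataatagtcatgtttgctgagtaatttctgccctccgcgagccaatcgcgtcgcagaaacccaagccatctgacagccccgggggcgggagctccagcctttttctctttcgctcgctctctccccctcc
HHIP: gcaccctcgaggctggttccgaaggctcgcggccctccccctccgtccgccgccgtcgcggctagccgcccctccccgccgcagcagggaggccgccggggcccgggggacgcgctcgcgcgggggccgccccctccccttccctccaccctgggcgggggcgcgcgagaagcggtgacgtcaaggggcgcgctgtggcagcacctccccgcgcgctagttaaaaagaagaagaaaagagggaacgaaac
The HHIP sequence held no exact match and was richer in G and C, with a GC content of 74.8% against 57.2% and 34 CG pairs against 13. A further exact motif of PTCH1 lies 131 bases after another of its starts, at chr9:95516832-95516840 in an exon that the annotation gives as UTR. When 1000 bases on each side of every start were searched, 593 of 35116 starts (1.69%) held the motif, and no member other than PTCH1 did. With up to 1 mismatch the motif was in 6.74% of the windows of 300 bases. A match of letters is not a bound site, and nothing on binding was measured in these libraries. In a transfected cell line other than DAOY, the paper reported chromatin immunoprecipitation of PTCH1 promoter DNA with a GLI site by tagged GLI1 and by tagged ZNF521.

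All 8 genes passed the filter of at least 10 counts in at least 2 libraries that left 14970 genes for testing. HHIP passed only through both SAG libraries and SHH only through both CTL libraries. That these libraries lay above the others in raw counts was thus built into the 2 genes being tested. Levels were compared between genes in RPKM units, that is, as counts scaled by exon length and by the total count of the library. SMO stood highest, with a median of 39.4 over the 4 libraries (35.4 to 49.7), which placed it at the 92.9th percentile of the tested genes. BOC followed at 20.4 (19.5 to 28.1) and GAS1 at 14.3 (10.2 to 23.9), and the ranges of these 2 co-receptors overlapped. PTCH1 was far lower on this per-length scale, at 2.10 (1.27 to 2.43), and lay at the 34.2nd percentile. CDON stood at 1.02 (0.845 to 1.16), below the lowest PTCH1 value. DISP1 stood at 0.662 (0.482 to 0.734), below the lowest CDON value. HHIP at 0.188 (0.0439 to 0.477) and SHH at 0.144 (0.0586 to 0.270) had overlapping ranges and were under the 4th percentile. The signal transducer and 2 of the 3 co-receptors were therefore abundant transcripts in DAOY cells, while the ligand was near the limit of what these libraries count. With the length of the longest transcript in place of that of all exons the order of the medians was the same, but the gaps between neighbours were not. BOC then stood at 36.6 (35.1 to 50.4), overlapping SMO (42.1 to 59.1) and no longer GAS1. PTCH1 stood at 3.41 (2.06 to 3.96), CDON at 2.22 (1.84 to 2.52) and DISP1 at 1.77, with ranges that overlapped between neighbours, so that the separation of these 3 depends on the length used.

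**Figure D1:**
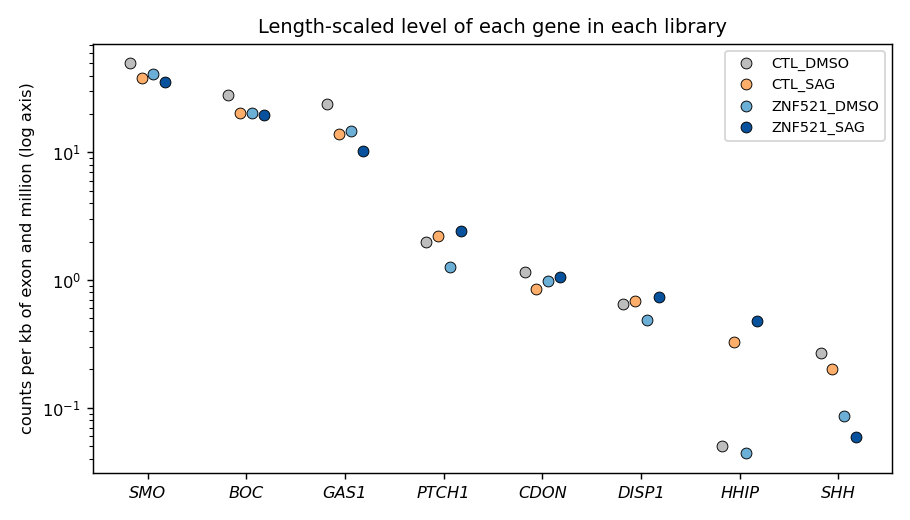
Level of the 8 genes in each of the 4 libraries in RPKM units (counts scaled by exon length and total count), on a log axis; each point is 1 library and there is no replicate. SMO, BOC and GAS1 lie between 10.2 and 49.7, and HHIP and SHH lie below 0.5 in every library.

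Within a gene, the spread over the 4 conditions differed widely. The highest normalised count of HHIP was 10.9-fold its lowest and that of SHH 4.53-fold, whereas GAS1 spanned 2.30-fold, PTCH1 1.92-fold, DISP1 1.52-fold, BOC 1.41-fold, SMO 1.38-fold and CDON 1.33-fold. SMO, GAS1, CDON, BOC and SHH were highest in CTL_DMSO, and PTCH1, HHIP and DISP1 in ZNF521_SAG. Over all tested genes, 34.5% were highest in CTL_DMSO and 21.2% in ZNF521_SAG, and no member was highest in CTL_SAG (23.4% of tested genes) or in ZNF521_DMSO (20.9%). The library CTL_DMSO stood apart from the other 3: over 9161 well counted genes the SD of its log2 deviations was 0.273, against 0.126 to 0.142. Results of the members that turn on it are given below with and without it. A fit with a library left out held the compared factor alone, so that its arms were unbalanced in the other factor. Total counts ran from 12294833 to 16314685. As checks of the labels, ZNF521 read 714 and 751 normalised counts in CTL and 2013 and 2072 in ZNF521 cells, and the GLI target GLI1 75.4 and 44.2 with DMSO and 324 and 318 with SAG. Of 10 markers of the granule neuron lineage, 7 had at least 10 counts in every library, and the defining markers ATOH1 and BARHL1 were below 10 in all 4. Their summed normalised counts ran from 1966 to 2116, those of 5 glial markers from 73.1 to 117 and those of 3 blood markers from 2.26 to 9.26. All 7 mesenchymal markers had at least 10 counts in every library, with a sum of 133854 in CTL_DMSO and of 80922 to 85007 in the other 3, a shift that goes with the members highest in CTL_DMSO and whose part in their values was not tested.

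**Figure D2:**
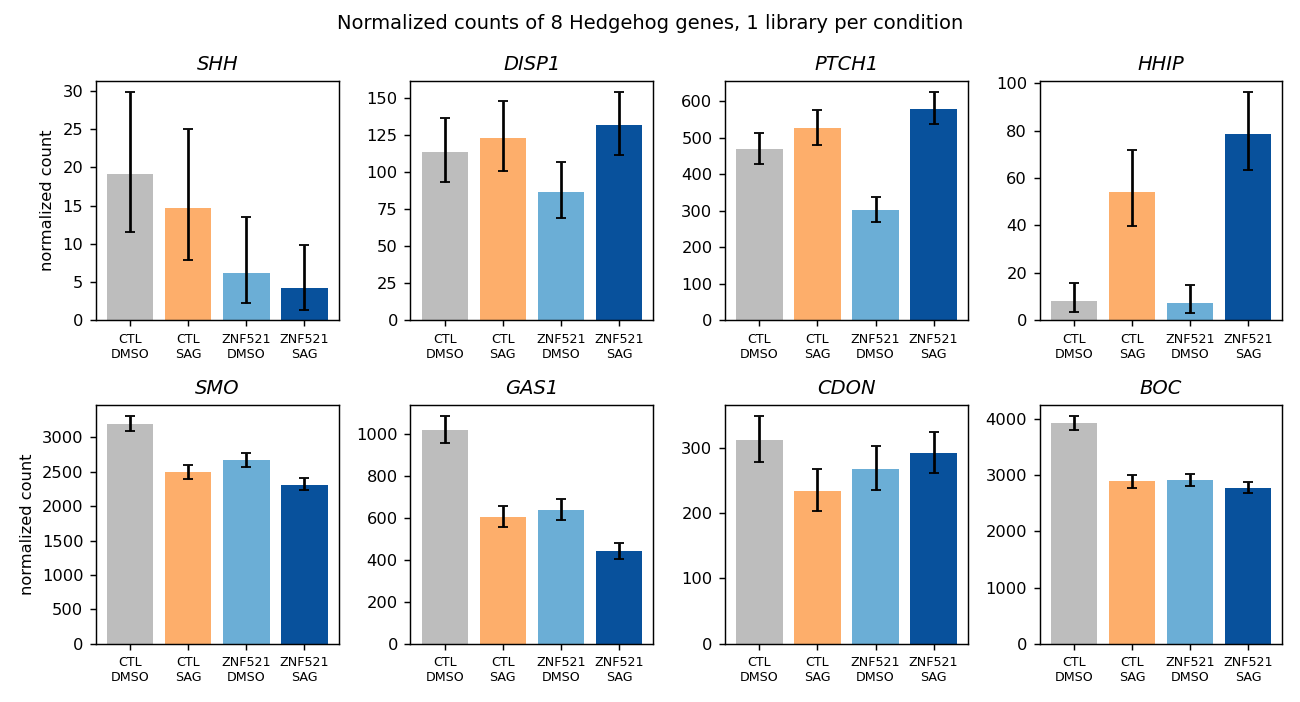
Normalised counts of the 8 genes in CTL_DMSO, CTL_SAG, ZNF521_DMSO and ZNF521_SAG, 1 panel per gene, with 95% Poisson intervals that cover counting error only. HHIP is at 7.20 and 8.04 with DMSO and at 54.1 and 78.5 with SAG, and GAS1 is highest in CTL_DMSO, at 1018.

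SAG was compared with DMSO within each kind of cells, to see how the surface machinery of the pathway responds when SMO is activated from outside. HHIP rose 8.52-fold, PTCH1 was 1.47-fold higher without passing the adjusted threshold, and GAS1 was 1.56-fold lower, also without passing it. Across the 8 genes, 1 passed an adjusted p of 0.05 (HHIP, higher), where 0.0401% of all tested genes passed, 6 in all and each of them higher with SAG. With the edgeR p taken before adjustment and a cutoff of 0.05, HHIP and PTCH1 passed as higher and GAS1 as lower, where 6.21% and 5.12% of all tested genes did. The study applied this cutoff to a different test, a paired t test on filtered normalised counts. In the paired moderated test on normalised counts run here, 1 of the 4 members tested passed that cutoff. The log2 folds there were 3.10 ± 0.73 (SE) for HHIP, 0.55 ± 0.73 for PTCH1 and -0.64 ± 0.73 for GAS1. For PTCH1, HHIP and DISP1 both SAG libraries lay above both DMSO libraries, as for 25.4% of tested genes, and for SMO, GAS1 and BOC both lay below both, as for 22.7%. In HHIP this order was built into its passing the filter. Taken pair by pair, SHH was also lower with SAG in both kinds of cells. CDON alone had SAG ratios of opposite sign in the 2 kinds of cells, as 38.3% of tested genes did, and the fitted log2 fold was below 0 for 5 of 8 members against 49.9% of tested genes. Leaving out ZNF521_DMSO set both SAG libraries against CTL_DMSO alone, with no term for the kind of cells. The log2 folds were then -0.42 for SMO, -0.98 for GAS1 and -0.48 for BOC, each of which was highest in CTL_DMSO. In bulk RNA, a change in the number of cells that express a gene and a change in RNA per cell cannot be told apart.

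The comparison of ZNF521 with CTL cells, within each treatment, asked whether the co-factor itself moves these genes. None of the 8 passed the adjusted threshold in edgeR, which 1 gene in all did (0.00668%), ZNF521 itself. At an unadjusted p of at most 0.05, GAS1 and SHH passed as lower and no member as higher, where 3.11% and 2.36% of all tested genes did, 5.48% in either direction. DESeq2 and limma-trend likewise called no member at the adjusted threshold. Without CTL_SAG both ZNF521 libraries were set against CTL_DMSO alone, with no term for SAG. The log2 folds of largest size were then 2.45 for HHIP, -1.89 for SHH, -0.94 for GAS1, -0.48 for BOC and -0.38 for SMO. For HHIP in that fit ZNF521 and SAG cannot be told apart. For SHH both ZNF521 libraries lay below both CTL libraries, as for 13% of tested genes, an order built into its passing the filter. For no member did both lie above both (13.3% of tested genes). Taken pair by pair, SMO, GAS1 and BOC were also lower in ZNF521 cells under both treatments. PTCH1, HHIP, CDON and DISP1 had ZNF521 ratios of opposite sign under the 2 treatments, as 49.9% of tested genes did. The log2 fold was negative for 6 of 8 members, against 50.6% of all tested genes.

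**Figure D3:**
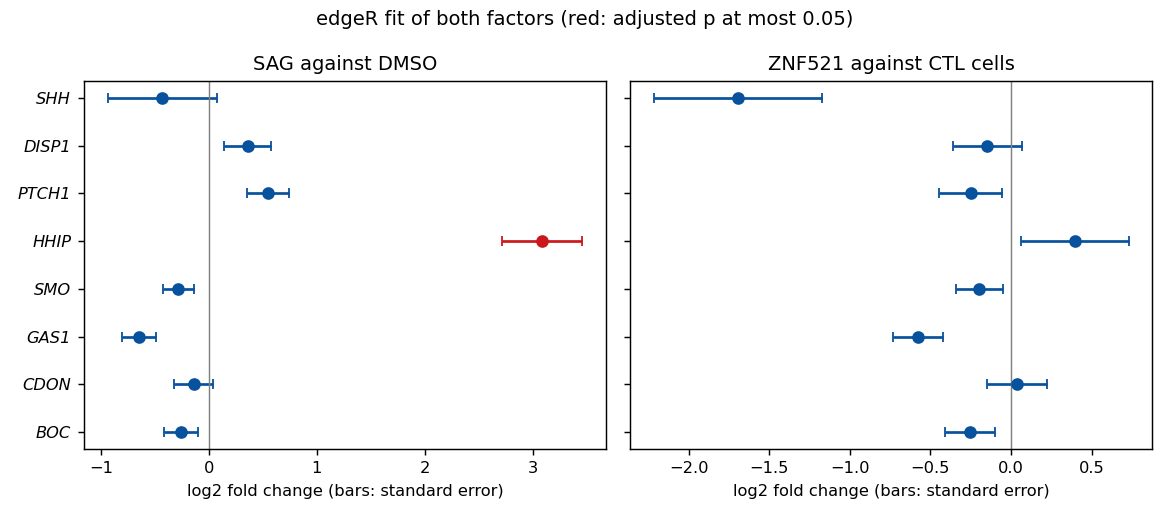
Log2 fold change and standard error of the 8 genes for SAG over DMSO and for ZNF521 over CTL cells, from the edgeR fit to all 4 libraries. HHIP stands at 3.09 for SAG, past the adjusted threshold, and SHH at -1.69 for ZNF521, which did not pass it.

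SHH, the ligand, is encoded on chr7:155799980-155812463 (hg38, minus strand). It had 19 counts in CTL_DMSO, 13 in CTL_SAG, 6 in ZNF521_DMSO and 5 in ZNF521_SAG, or 19.1, 14.7, 6.17 and 4.22 normalised counts. Both CTL libraries were above both ZNF521 libraries, an order built into its passing the filter, and the SAG library was the lower of each pair. For ZNF521 the log2 fold was -1.69 ± 0.52 (SE), 3.24-fold lower, with an unadjusted p of 0.0066 and an adjusted p of 0.778 in edgeR. The ratio of ZNF521 to CTL libraries was 0.323 (95% counting interval 0.106 to 0.842) with DMSO and 0.288 (0.0803 to 0.860) with SAG, so that the 2 treatments gave nearly the same ratio, although on counts of 5 to 19. For SAG the log2 fold was -0.43 ± 0.51 (edgeR, adjusted p of 0.762), and both pairs of libraries had intervals that held 1. Without CTL_DMSO the SAG value turned to 0.49, and without ZNF521_SAG to 0.21.

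DISP1, which releases the ligand, lies on chr1:222815022-223005995 (plus strand). Its normalised counts were 114 in CTL_DMSO, 123 in CTL_SAG, 86.4 in ZNF521_DMSO and 132 in ZNF521_SAG. The SAG library was the higher in both pairs, by a ratio of 1.08 (0.824 to 1.42) in CTL and of 1.52 (1.16 to 2.01) in ZNF521 cells, and ZNF521_DMSO was the lowest of all. Over both pairs the log2 fold for SAG was 0.36 ± 0.22 (edgeR, adjusted p of 0.518), and that for ZNF521 was -0.15 ± 0.22 (adjusted p of 0.988). The SAG value was 0.56 without CTL_DMSO and 0.16 without ZNF521_DMSO, and the ZNF521 value turned to 0.15 without ZNF521_DMSO.

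PTCH1, the receptor, is encoded on chr9:95442980-95517057 (minus strand), with the motif shown above at 1 of its starts. Its normalised counts were 468 in CTL_DMSO, 527 in CTL_SAG, 301 in ZNF521_DMSO and 579 in ZNF521_SAG. The 2 SAG libraries were the highest, and ZNF521_DMSO was well below the other 3. In CTL cells SAG over DMSO gave a ratio of 1.12 (0.987 to 1.28), whose interval held 1. In ZNF521 cells it gave 1.92 (1.67 to 2.21). ZNF521 over CTL was 0.644 (0.554 to 0.747) with DMSO and 1.10 (0.976 to 1.24) with SAG, so that the 2 kinds of cells lay apart with DMSO and within counting error with SAG. GLI1 had a similar arrangement, with SAG ratios of 4.29 in CTL and 7.19 in ZNF521 cells and ZNF521 ratios of 0.587 with DMSO and 0.983 with SAG. The log2 SAG ratio of PTCH1 was 0.77 larger in ZNF521 than in CTL cells (counting interval 0.50 to 1.04), and that of GLI1 0.74 larger (0.16 to 1.33). This difference was above 0 for every member except SHH (-0.17). Its interval also lay above 0 for CDON (0.20 to 0.89), BOC (0.27 to 0.47), SMO (0.04 to 0.26) and GAS1 (0.0024 to 0.45). Each of these co-receptor genes and SMO was highest in CTL_DMSO. The median of this difference over all tested genes was -0.03 and PTCH1 lay at the 93.3rd percentile, but with 1 library per condition the difference could not be tested. Over both pairs the fold for SAG was 0.55 ± 0.19 on the log2 scale (edgeR, unadjusted p of 0.0142, adjusted p of 0.391), at the 97.5th percentile of all tested genes. Without CTL_DMSO it was 0.87, with an adjusted p of 0.00651, in a fit that rests on CTL_SAG and both ZNF521 libraries and in which 67 genes passed. Without ZNF521_DMSO it was 0.23 (adjusted p of 0.137). The value for ZNF521 was -0.25 ± 0.19 (adjusted p of 0.968). It turned to 0.22 without ZNF521_DMSO, where ZNF521_SAG was the only ZNF521 library.

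HHIP, the ligand trap, lies on chr4:144646156-144745271 (plus strand), directly after the promoter shown above. It had 8 counts in CTL_DMSO, 48 in CTL_SAG, 7 in ZNF521_DMSO and 93 in ZNF521_SAG, or 8.04, 54.1, 7.20 and 78.5 normalised counts. Both SAG libraries were far above both DMSO libraries, and the DMSO libraries of the 2 kinds of cells were alike within counting error. That the SAG libraries were above was built into its passing the filter. The ratio of SAG to DMSO was 6.73 (3.16 to 16.5) in CTL and 10.9 (5.08 to 27.8) in ZNF521 cells. The log2 fold over both pairs was 3.09 ± 0.37, with an adjusted p of 0.00613 in edgeR. Without ZNF521_SAG it lost the call (adjusted p of 0.184), and so it did in the paired moderated test on normalised counts (0.0723). With SAG the ZNF521 library was 1.45-fold the CTL library (1.01 to 2.10) and with DMSO 0.896-fold (0.277 to 2.83). The ZNF521 value over both was 0.39 ± 0.34 (adjusted p of 0.980), and it turned to -0.26 without CTL_DMSO and to -2.08 without ZNF521_SAG. Those 2 fits held no term for SAG and were unbalanced in it. HHIP was thus barely counted with DMSO and higher with SAG in both kinds of cells. The log2 SAG ratio was 0.69 larger in ZNF521 cells, with a counting interval of -0.85 to 2.24 that held 0.

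The opposite strand at HHIP carries HHIP-AS1, on chr4:144642919-144661357, which overlaps the start of HHIP. The libraries were made strand-specific, but the strand setting of the counting is not given in the sources used here, so that reads of the 2 genes may not be fully separated. HHIP-AS1 had 5, 5, 4 and 18 counts in CTL_DMSO, CTL_SAG, ZNF521_DMSO and ZNF521_SAG and did not pass the filter. It stood out in ZNF521_SAG alone, with a SAG ratio of 3.69 (1.22 to 15.0) in ZNF521 and of 1.12 (0.258 to 4.87) in CTL cells. Fitted with no filter, its log2 fold for SAG was 1.14 ± 0.74 (edgeR, adjusted p of 0.637).

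SMO, the transducer that SAG binds, is encoded on chr7:129188633-129213545 (plus strand). It gave 3198 normalised counts in CTL_DMSO, 2500.1 in CTL_SAG, 2671 in ZNF521_DMSO and 2316 in ZNF521_SAG. CTL_DMSO was the highest, and the SAG library was the lower of both pairs. The SAG ratio was 0.782 (0.740 to 0.826) in CTL and 0.867 (0.821 to 0.915) in ZNF521 cells. The ZNF521 ratio was 0.835 (0.793 to 0.880) with DMSO and 0.926 (0.876 to 0.980) with SAG. Over both pairs the log2 fold for SAG was -0.28 ± 0.15 (edgeR, adjusted p of 0.475), and that for ZNF521 -0.20 ± 0.15 (adjusted p of 0.967). Without CTL_DMSO these were -0.16 and 0.00056. The target of the agonist was therefore well expressed in every library.

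GAS1, a membrane-anchored co-receptor, lies on chr9:86944362-86947506 (minus strand). It gave 1018 normalised counts in CTL_DMSO, 603 in CTL_SAG, 637 in ZNF521_DMSO and 442 in ZNF521_SAG. It was lower with SAG in both kinds of cells and lower with ZNF521 under both treatments. The SAG ratio was 0.593 (0.533 to 0.659) in CTL and 0.694 (0.617 to 0.781) in ZNF521 cells. The ZNF521 ratio was 0.626 (0.565 to 0.692) with DMSO and 0.733 (0.648 to 0.828) with SAG. As for SMO, none of these 4 counting intervals held 1. As for SMO, BOC and SHH, the library with both factors was the lowest of all. In edgeR the log2 fold for SAG was -0.64 ± 0.16 (unadjusted p of 0.00135, adjusted p of 0.391), at the 3.25th percentile of all tested genes, and for ZNF521 -0.58 ± 0.16 (unadjusted p of 0.00295, adjusted p of 0.679), at the 3.26th. Both were smaller without CTL_DMSO, at -0.30 and -0.16. With no filter on low counts the SAG value passed (adjusted p of 0.0259), in a fit in which 223 genes did.

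CDON and BOC, related co-receptors of the immunoglobulin superfamily, are encoded on chr11:125955796-126063335 (minus strand) and chr3:113211003-113287459 (plus strand). CDON gave 312 normalised counts in CTL_DMSO, 233 in CTL_SAG, 268 in ZNF521_DMSO and 292 in ZNF521_SAG. The SAG library was the lower in CTL cells, by a ratio of 0.749 (0.625 to 0.896), and slightly the higher in ZNF521 cells, by 1.09 (0.926 to 1.29). BOC gave 3925 in CTL_DMSO, 2889 in CTL_SAG, 2917 in ZNF521_DMSO and 2776 in ZNF521_SAG, so that CTL_DMSO stood alone and the other 3 lay close together. For BOC the SAG ratio was 0.736 (0.700 to 0.774) in CTL and 0.952 (0.905 to 1.001) in ZNF521 cells. Over both pairs the log2 fold for SAG was -0.14 ± 0.18 for CDON and -0.26 ± 0.16 for BOC (edgeR, adjusted p of 0.786 and 0.521). For ZNF521 it was 0.04 ± 0.18 for CDON and -0.25 ± 0.16 for BOC (adjusted p of 0.992 and 0.957). Without CTL_DMSO the BOC values were -0.05 and -0.02. The end of BOC overlaps CFAP44, a ciliary gene on the opposite strand, which gave 80.4, 115, 86.4 and 109 normalised counts in the same order of libraries and was lowest in CTL_DMSO, where BOC was highest.

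**Figure D4:**
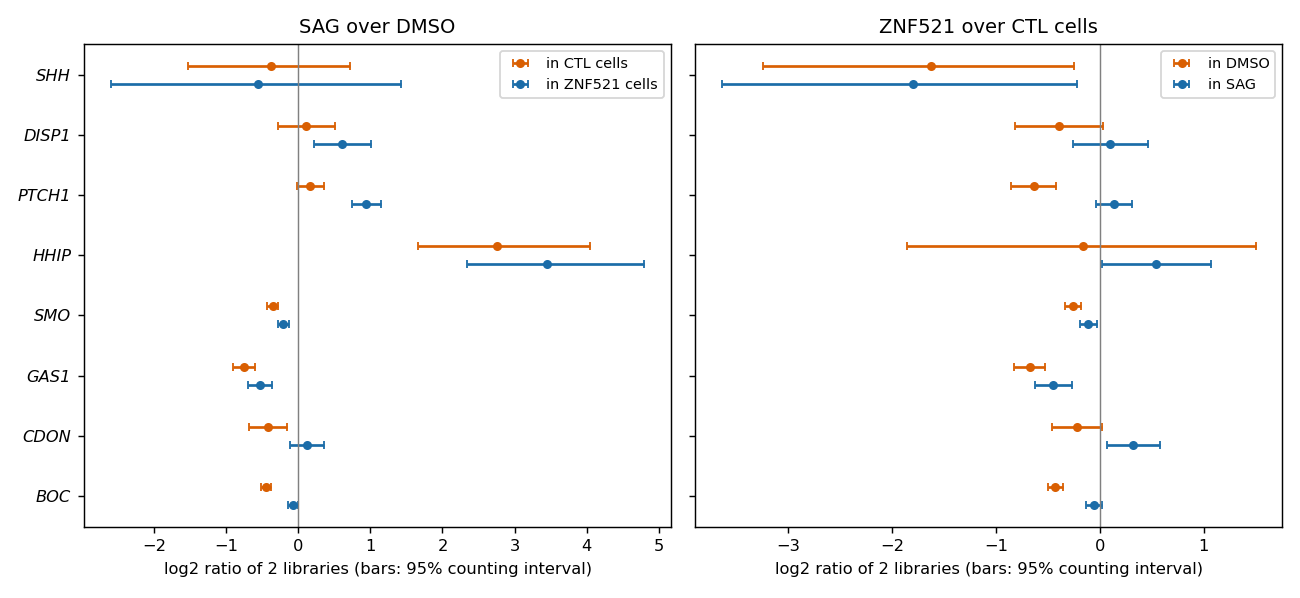
Ratios of normalised counts of 2 libraries that differ in 1 factor, with exact 95% counting intervals on a log axis, for the 8 genes. The SAG ratio of PTCH1 is 1.12 in CTL and 1.92 in ZNF521 cells, and the 4 intervals of GAS1 and the 4 of SMO lie below 1.

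The other genes of the pathway were counted in 3 lists. Of 10 genes for ligands and their release, 8 were found by symbol and 7 were tested. HHATL and DISP3 were not found, and older symbols were not searched. None of those tested passed at an adjusted or unadjusted p of 0.05 (edgeR) for either factor. IHH, another Hedgehog ligand, had 0 counts in both CTL libraries and 4 and 3 in the ZNF521 libraries, and DHH, the third ligand, 8 to 11 in all 4, so that no Hedgehog ligand was more than sparsely counted. SCUBE1, of a family that aids ligand release, gave a log2 fold of -0.49 ± 0.26 for SAG (adjusted p of 0.475). Of 20 further membrane regulators 17 were found by symbol, all but GRK2, GRK3 and MOSMO, and 16 were tested. Of those tested, 14 had a negative log2 fold for SAG (49.9% of all tested genes did). Their median was -0.26 (-0.09 without CTL_DMSO) over the 16, against 0.00055 for all tested genes. None passed the adjusted threshold, and 3 passed the unadjusted one as lower (5.12% of all tested genes did), among them the glypican GPC3 at -0.54 ± 0.19 and the ubiquitin ligase MGRN1 at -0.58 ± 0.22 (edgeR, adjusted p of 0.391 for both). Without CTL_DMSO GPC3 was at -0.43 and MGRN1 at -0.09.

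At the level of the GLI factors 7 of 7 genes were tested, and GLI1 rose with SAG by 2.44 ± 0.22 on the log2 scale (edgeR, adjusted p of 0.00054). GLI3, which acts mostly as the repressor of the pathway, gave -0.50 ± 0.22 (adjusted p of 0.425), and GLI2 gave -0.42 ± 0.20 (adjusted p of 0.449). SUFU, the inhibitor that binds GLI proteins, gave -0.41 ± 0.19 (adjusted p of 0.444). Without CTL_DMSO the SAG value of GLI3 turned to 0.06, GLI2 was at -0.12 and SUFU at -0.04, while GLI1 was at 2.85. For ZNF521 GLI3 gave -0.57 ± 0.22 (edgeR, unadjusted p of 0.0232, adjusted p of 0.893), and -0.03 without CTL_DMSO. The median of the list was -0.26 for SAG and -0.30 for ZNF521, and without CTL_DMSO it was -0.04 and 0.01. The 8 surface genes had medians of -0.20 and -0.22 with all libraries, and of 0.23 and -0.16 without CTL_DMSO. In CTL_DMSO the median deviation of a list from the gene means was 0.21 to 0.26 on the log2 scale for each of the 4 lists, the highest of the 4 libraries in each. Highest in CTL_DMSO were 6 of 7 ligand and release genes, 10 of 16 membrane regulators, 5 of 7 GLI level genes and 5 of 8 members. Of all tested genes 34.5% were, and their median deviation was not computed.

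**Figure D5:**
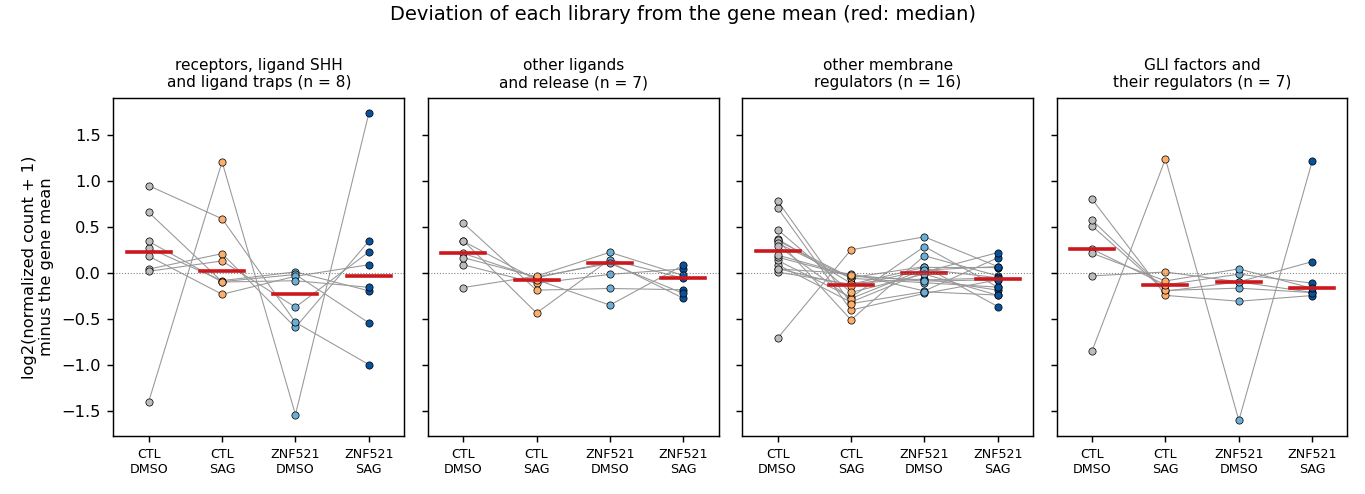
Log2 deviation of each tested gene from its own mean over the 4 libraries, by library, for the 8 genes and the 3 other lists of the pathway, with the median of each list as a line. The median is highest in CTL_DMSO for every list, at 0.21 to 0.26. Of all tested genes, 34.5% were highest in that library.

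Transcript GC content moved with both comparisons. The median log2 fold of the tested genes ran from 0.25 in the GC quintile of lowest content to -0.24 in that of highest content for SAG, and from 0.12 to -0.09 for ZNF521. SMO (61.6% GC) and GAS1 (59.7%) were in the highest quintile, BOC (55.3%) and SHH (54.3%) in the next, PTCH1 (48.7%), DISP1 (47.7%) and CDON (46.4%) in the middle one and HHIP (36.9%) in the lowest. The SAG value of SMO, -0.28, was close to the median of its quintile, whereas those of GAS1 (-0.64), PTCH1 (0.55) and HHIP (3.09) lay farther out than the medians of theirs. The part of GC content in the value of any gene was not tested.

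Among 14702 genes with a mean of at least 10 normalised counts, those with the most similar pattern over the 4 libraries were taken by Euclidean distance of the centred log2 values. For HHIP these were DRD1 (0.564), MYOCD (0.600) and GLI1 (0.762), for PTCH1 LINC00346 (0.0778), PIPSL (0.117) and SPDYA (0.123), for GAS1 LILRB3 (0.0987), NKPD1 (0.109) and LRFN1 (0.114), and for SHH SEMA4A (0.446), LIX1 (0.465) and ZNF469 (0.479). With 4 libraries many genes share a pattern closely: the nearest gene to BOC, MBOAT7, lay at 0.00511 and that to SMO, PHKG2, at 0.0230. HHIP and SHH had no such close neighbour, and their large distances go with low counts and wide spans.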

How the data were processed

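DAOY cells gave 4 RNA libraries, 1 per condition. The authors aligned paired reads of 50 nt to hg38 with STAR 2.7.0e (submitters' processing notes). The deposited raw table holds whole counts for 20363 genes. The normalised table is a signal that the authors made by dividing counts by DESeq2 size factors, 0.887 to 1.19 per library. It lacks 503 genes with a total count of at most 1. The annotation, strand setting and read filters of the counting are not given in the sources used here.

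The 8 genes and all lists were chosen with earlier results of these data known. The members were fixed by symbol, up to 4 genes of each pathway list were named by smallest unadjusted p, and the 3 nearest patterns per member by distance. Results of some genes are not reported here. IHH, DHH and CFAP44 were named after their values were seen or by overlap.

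Genes reaching 10 counts in 2 or more libraries (14970) were tested by edgeR 4.0.16 (R 4.3.3) with TMM factors and the quasi-likelihood F-test, with treatment and kind of cells as additive terms. The fit leaves 1 residual degree of freedom, moderated by a prior of 11.7 from all tested genes, and p-values were adjusted by Benjamini-Hochberg at 0.05. That degree of freedom is the difference of the SAG ratio between the 2 kinds of cells, not a spread of repeats. Ratios of 2 libraries carry exact 95% Clopper-Pearson intervals, which cover counting error only, as do Poisson intervals of counts. Lengths, GC content and positions came from GENCODE v44 (hg38), which matched 19803 of 20363 genes (97.2%), and promoters from RefSeq (GRCh38.p14). Alternatives were RLE factors, library size alone, no filter, a minimum mean count of 50, limma-trend 3.58.1, DESeq2 1.42.0, a paired moderated test on normalised counts, no block, and each library left out. The fits with a library left out also had no block and held only the factor compared. The tests were checked on simulated data with a single dispersion for all genes and no library that stood apart. The genes changed there had a mean count of at least 50, so that the check does not cover HHIP and SHH.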

Additional observations from a re-analysis of the deposited data

Results flagged for a closer look

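For 4 of the 8 genes the ratio of a pair of libraries pointed one way in one setting and the opposite way in the other, and none of these differences was tested, since 1 library per condition leaves nothing to test them with. PTCH1 was lower in ZNF521 than in CTL cells with DMSO and higher with SAG, a difference of 0.77 on the log2 scale. HHIP did the same with a difference of 0.69, on 7 and 8 counts with DMSO, and DISP1 with 0.49. CDON was lower with SAG in CTL and higher in ZNF521 cells, and likewise lower in ZNF521 cells with DMSO and higher with SAG, both by 0.54, since with 4 libraries these are the same quantity. Of all tested genes 49.9% had opposite ZNF521 ratios under the 2 treatments and 38.3% opposite SAG ratios in the 2 kinds of cells.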

How the results depend on the processing

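For SAG, 1 member passed the adjusted threshold with RLE factors, library size alone, DESeq2 and limma-trend too. It was 2 with no filter on low counts (HHIP and GAS1), and 0 with a mean count of at least 50, where HHIP was not in the fit, 0 in the paired moderated test (HHIP adjusted p of 0.0723) and 0 with no block (0.268). Leaving out each library gave 0 to 4: PTCH1 and HHIP without CTL_DMSO, HHIP, SMO, GAS1 and BOC without ZNF521_DMSO (where 4584 genes passed), and none without ZNF521_SAG. The fit without ZNF521_DMSO had CTL_DMSO as its only DMSO library. The log2 fold of HHIP stayed between 2.81 and 3.34. Over the libraries left out, that of PTCH1 ran from 0.23 to 0.87 and that of DISP1 from 0.16 to 0.56. For ZNF521 it was 0 in every setting except without CTL_SAG, which gave 5 (HHIP, SMO, GAS1, BOC and SHH) while 2341 genes passed, a fit with CTL_DMSO as its only CTL library. The range over libraries left out was 0 to 5.

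Signs turned only where a library was left out. For SAG the log2 folds over the 4 such fits were -1.56 to 0.49 for SHH (above 0 without CTL_DMSO and, at 0.21, without ZNF521_SAG) and -0.31 to 0.010 for CDON (above 0 without CTL_SAG). For ZNF521 they were -2.08 to 2.45 for HHIP (below 0 without CTL_DMSO, at -0.26, and without ZNF521_SAG), -0.38 to 0.00056 for SMO (above 0 without CTL_DMSO), -0.17 to 0.27 for CDON (below 0 without CTL_SAG and without ZNF521_SAG), -0.74 to 0.22 for PTCH1 and -0.47 to 0.15 for DISP1 (both above 0 without ZNF521_DMSO). Each fit with a library left out held only the compared factor, with no block, so that its arms were unbalanced in the other factor. Without CTL_SAG both ZNF521 libraries were set against CTL_DMSO alone, and without ZNF521_SAG the library ZNF521_DMSO against both CTL libraries. In the HHIP values of 2.45 and -2.08 ZNF521 and SAG thus cannot be told apart. No cause of a turn was tested, and a lone library was assumed to vary like the other arm. Ratios of 2 libraries with TMM factors or total counts stayed within the intervals given. HHIP with DMSO and SHH rest on 5 to 19 counts, which limits their precision.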
